A study of Rattus norvegicus with 30 samples.

Results

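A set of 200 genes was low in rat median nerve after repair at every time sampled and had not recovered by day 21. The genes were picked from the 32545 of the count table by their own measured values. The level of a gene is here its group mean of log2(CPM + 1), where CPM is the gene's count over the library's total, scaled to 1000000 counts. For each gene the difference in level from control nerve was taken in 6 repair groups. Genes that stood 1 or more higher at day 21 than at day 7 in either repair were set aside. The ranking value is the largest of the 6 differences, that is, the one in the group nearest to control, and the 200 genes with the lowest ranking values were kept. They are numbered by that value, with rank 1 the lowest. These values chose the genes, so every comparison of them with control, and of day 21 with day 7, is a description without a test.

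All animals were adult female rats labelled wild type (WT), and strain, age and whether each sample came from its own animal are not given in the labels. The median nerve, a nerve of the forelimb, was cut to leave a gap of 8 mm and bridged with a 10 mm chitosan tube. The immediate repair was made at the injury and sampled 7, 14 and 21 days later (4, 4 and 5 samples). The delayed repair was made 3 months after the injury and sampled at the same days after repair (5, 4 and 3 samples), and 5 healthy, untreated nerves labelled Day 0 served as control. The repair samples are tissue regenerated inside the tube, whereas control is intact nerve. Poly(A) RNA was sequenced, with 11958242 to 17334752 counts per library. Because nothing says that replicates are separate animals, p-values measure the spread between these samples.

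A healthy peripheral nerve holds axons wrapped by Schwann cells, which make the myelin sheath. It also holds the perineurium, a layered cell barrier around each bundle of axons, and an outer epineurium of connective tissue, vessels and fat cells. Messenger RNA in a nerve comes mostly from these resident cells, since the cell bodies of the neurons lie in the spinal cord and ganglia. When a gap is bridged by a tube, a cord of matrix and migrating cells forms first, and Schwann cells and axons enter later. In bulk RNA, fewer cells of a type and less RNA per cell cannot be told apart. The files do not pair their Ensembl gene IDs with symbols, so the genes are described by their values and ranks, 2 of them by ID, and the labelled tissue was not checked against its markers.

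Most genes that were low at day 7 did not belong to the set. At day 7 of both repairs, 1613 genes were at least as far below control as the ranking value of rank 200, and the 200 members are 12.4% of them. Of the others, 1320 had gained 1 or more in level by day 21: 1092 in both repairs, 210 in the immediate repair alone and 18 in the delayed repair alone. A further 93 gained less than that but stood nearer to control in some other group. These counts come from the rule itself and carry no test.

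The ranking values ran from -6.36 to -2.07, with a median of -2.84. They were under -3 in 84 members, under -4 in 39 and under -5 in 14. The group nearest to control was immediate day 21 in 97 members and delayed day 7 in 43. It was delayed day 21 in 20, immediate day 7 in 15, delayed day 14 in 14 and immediate day 14 in 11. The edge of the set is not a gap. Ranks 198, 199 and 200 had ranking values of -2.10, -2.07 and -2.07, and the next 3 genes, which were left out, had -2.07, -2.06 and -2.06. Those 3 measured 5.02, 5.77 and 549 CPM in control, against 4.55, 204 and 99.7 CPM for the 3 inside, so genes of low and high level lie on both sides of the edge.

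**Figure D1:**
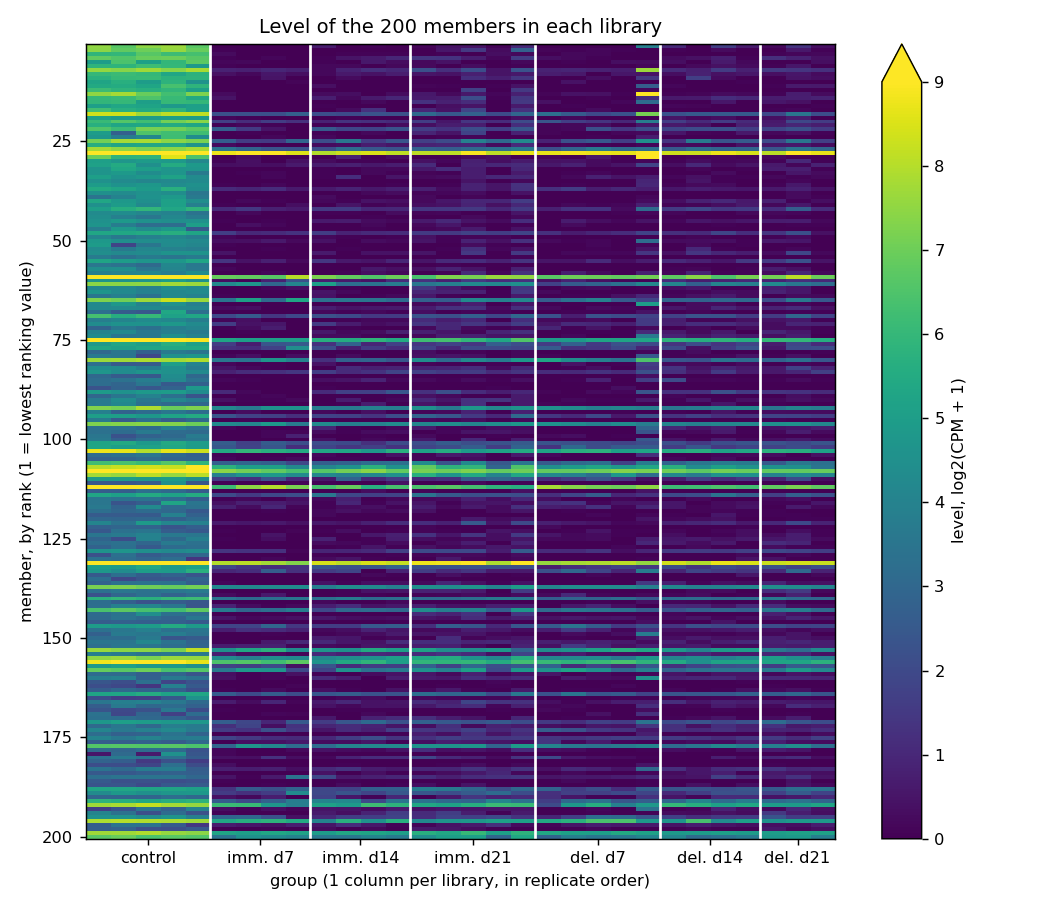
Level, log2(CPM + 1), of each of the 200 members (rows, by rank) in each of the 30 libraries (columns, by group), with the colour scale ending at 9. The control columns are brighter than the repair columns, although 93 members have control levels of only 2 to 4. The repair columns are dark apart from a few abundant members, and delayed day 7 replicate 5 holds isolated bright cells such as ranks 13 and 29.

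The members took a steady share of the counts of control nerve and a much smaller one of every repair library. Their summed share was 2.54%, 2.46%, 2.41%, 2.78% and 2.73% in the 5 control libraries. In the 25 repair libraries it lay between 0.145% and 0.558%, and no repair library came near control. The immediate repair groups stood at 0.182% ± 0.012 (SD, n = 4), 0.156% ± 0.0096 (n = 4) and 0.201% ± 0.038 (n = 5) at days 7, 14 and 21. The day 21 libraries of this repair were 0.193%, 0.187%, 0.232%, 0.148% and 0.243%, so they overlapped those of day 7, which ran from 0.169% to 0.196%.

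Delayed repair measured 0.161% ± 0.011 (SD, n = 4) at day 14 and 0.177% ± 0.033 (n = 3) at day 21. Its day 7 libraries were 0.160%, 0.172%, 0.175%, 0.170% and 0.558%. Replicate 5 stood apart, and without it the day 7 shares of the delayed repair lay within 0.160% to 0.175%. The highest share of any other repair library was 0.243%, in immediate day 21 replicate 5.

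A few members carried most of that share. In control nerve the median member measured 17.6 CPM, the range was 3.88 to 9724 CPM, and 61 members were under 10 CPM while the 4 highest lay between 1118 and 9724 CPM. The most abundant member held 37.6% of the members' counts, the top 3 held 55.3% and the top 10 held 71.2%. Without the most abundant member the share was 1.61% ± 0.053 (SD, n = 5) in control and 0.136% ± 0.0061 (n = 4) at immediate day 7.

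The most abundant member, rank 28, is ENSRNOG00000018991. It measured 9112, 9387, 7667, 11431 and 11022 CPM in control nerve. Immediate repair gave 438, 522, 504 and 378 CPM at day 7, 249, 319.8, 363 and 280.5 CPM at day 14, and 272, 273, 485, 277 and 407 CPM at day 21. Delayed repair gave 407, 463, 423, 409 and 534 CPM at day 7, 315, 308, 423 and 351 CPM at day 14, and 265, 569.6 and 419 CPM at day 21. The immediate day 14 libraries all lay below those of immediate day 7. The other days overlapped within each repair, and every repair library lay far under every control library. Pooled over libraries, control was 25.1 times the repair level. This gene alone made up nearly 1% of the counts of a healthy nerve (0.972%).

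The next 2 by abundance kept different profiles over time. Rank 131 measured 2739, 2489, 3040, 2519 and 2309.9 CPM in control. At day 7 of immediate repair it measured 249.5, 270.4, 212 and 161 CPM, and at day 21 it measured 431, 454, 554, 239 and 566 CPM. At delayed day 7 it measured 189.7, 219, 239, 268 and 187 CPM, and at delayed day 21 it measured 313, 344 and 300.2 CPM. In the delayed repair the libraries of day 21 did not overlap those of day 7, and in the immediate repair replicate 4 alone of the day 21 libraries lay among those of day 7. Rank 59 measured 1321 to 2465 CPM in control and 84.8 to 266 CPM over the 25 repair libraries, with no separation of the days.

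**Figure D2:**
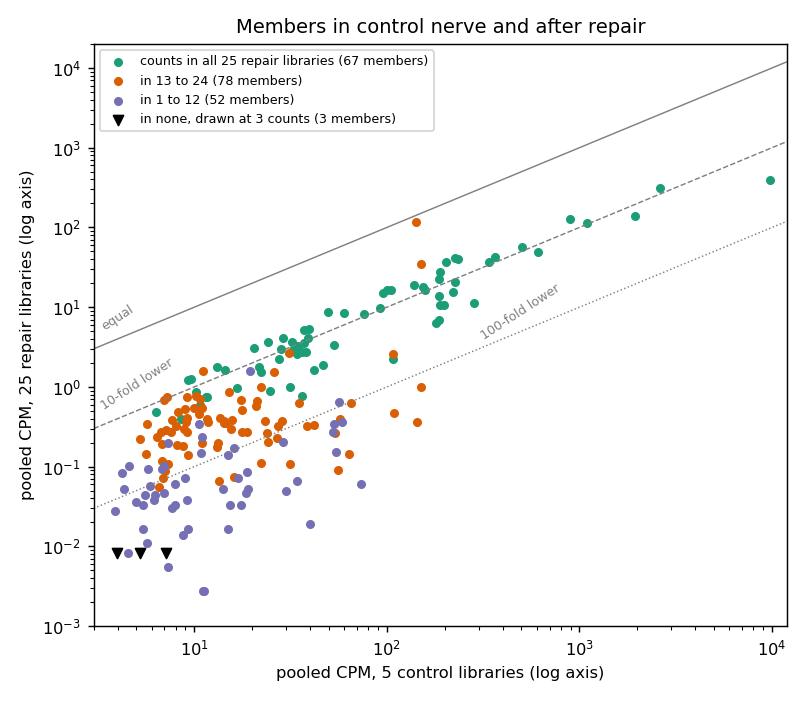
Pooled CPM of each member over the 5 control libraries (horizontal, log axis) and over the 25 repair libraries (vertical, log axis), coloured by how many repair libraries had counts. Points under the dashed line are over 10-fold lower after repair, and 3 members without any count after repair are drawn at the level of 3 counts.

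Members differed in whether anything of them remained. Counts were found in every repair library for 67 members, in 13 to 24 of the 25 for 78 members, in 1 to 12 for 52 members and in none for 3. In control nerve all 200 had counts in every library, with a lowest value of 7 counts. Poly(A) libraries of this depth leave single reads uncertain, so a count of 0 limits a level and does not show absence.

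The 67 members with counts everywhere were reduced but measurable. Pooled control over pooled repair was 10.3-fold at the median for them, from 5.50-fold at rank 199 to 47.8-fold at rank 20. Without delayed day 7 replicate 5 the median was 10.3-fold and the highest value was 147-fold, at rank 7. Rank 20 measured 65.8, 96.5, 74.1, 134 and 168 CPM in control. Its repair libraries lay between 0.473 and 4.19 CPM, except for 12.98 CPM in delayed day 7 replicate 5. Such members had a median of 49.5 CPM in control, against 9.06 CPM for those with counts in 12 or fewer repair libraries, so how often a member was seen after repair went with its level in the nerve.

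At the other end, 10 members with at least 20 CPM in control had counts in 12 or fewer repair libraries. Rank 10 measured 37.2, 50.8, 30.7, 55.2 and 23.2 CPM in control. Only 3 repair libraries held any count of it, at 0.0836 CPM in immediate day 7 replicate 4, 0.344 CPM in delayed day 7 replicate 2 and 0.0653 CPM in delayed day 14 replicate 4. Rank 3 measured 57.9, 62.0, 101, 71.5 and 79.4 CPM in control and at most 0.252 CPM after repair. Both genes stood far under control in every repair library.

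Ranks 86, 135 and 181 had no count in any repair library, over 363765810 counts in all. Rank 86 measured 8.27, 6.57, 10.5, 4.88 and 5.76 CPM in control, rank 135 measured 2.74 to 8.61 CPM and rank 181 measured 1.84 to 6.38 CPM. A limit of 3 counts over all repair libraries makes them at least 866-fold, 637-fold and 482-fold lower after repair. The limit covers counting error only.

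The lowest ranking value belonged to ENSRNOG00000028108. It measured 181, 101, 176, 197 and 103 CPM in control nerve. All 4 immediate day 7 libraries and 4 of the 5 delayed day 7 libraries had no count, and delayed day 7 replicate 5 had 13.9 CPM. Later it measured 0.622, 0, 0.0724 and 0 CPM at immediate day 14 and 0.0827, 0.355, 0.400, 0.063 and 1.02 CPM at immediate day 21. In the delayed repair it measured 1.03, 0, 2.13 and 0.587 CPM at day 14 and 0.149, 1.52 and 0.267 CPM at day 21. Every repair library stayed under control, and traces were present in every day 21 library of both repairs.

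On average more members left a trace as the days went on, but single libraries of different days overlapped. With each library drawn down to 11958242 counts, the expected number of members with a count was 108 ± 11 (SD, n = 4) at immediate day 7, 139 ± 3.8 (n = 4) at day 14 and 159 ± 14 (n = 5) at day 21. For delayed repair it was 122 ± 18 (n = 5), 143 ± 3.9 (n = 4) and 150.5 ± 13 (n = 3). Immediate day 21 replicate 4 stood at 136, within the 133 to 142 of immediate day 14. Delayed day 7 replicate 5 stood at 150 and delayed day 21 replicate 3 at 136, against 138 to 146 at delayed day 14. All 200 were present in each control library at that depth. The same number over all genes of the table was 16692 ± 456, 17957 ± 161 and 18174 ± 198 after immediate repair, 17612 ± 129 (n = 5) in control, and 17138 ± 271 (n = 5), 17994 ± 143 (n = 4) and 17892 ± 129 (n = 3) after delayed repair. At days 14 and 21 all genes, too, were detected in higher number than at day 7, in both repairs. Its part in the members' numbers was not tested.

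**Figure D3:**
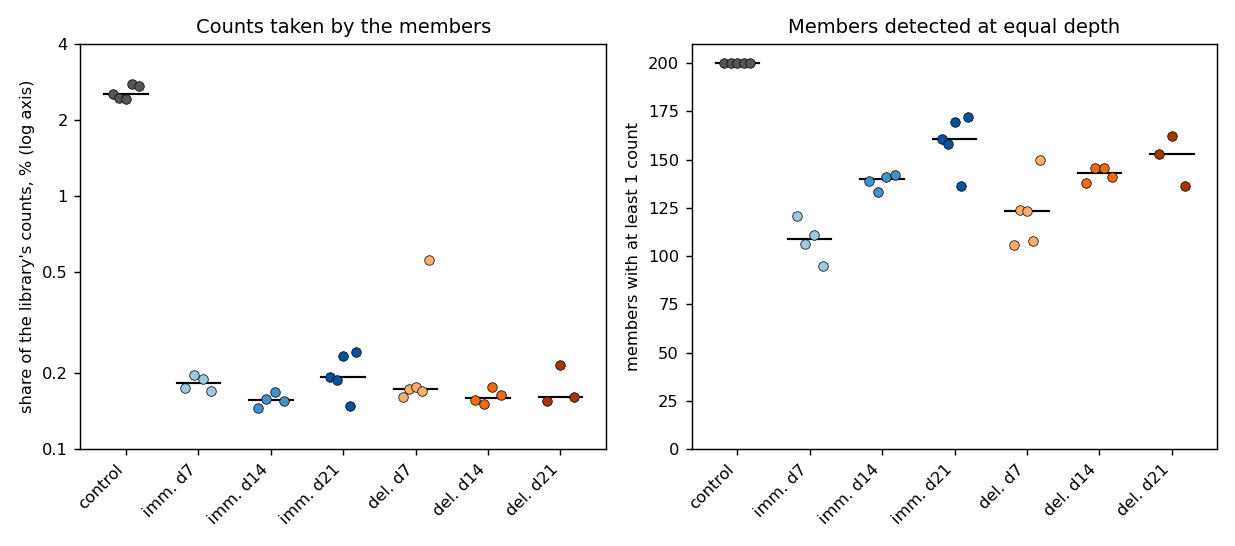
Left, share of a library's counts taken by the 200 members (percent, log axis); right, number of members with at least 1 count after drawing each library down to equal depth. Each point is a library and each bar a group median: control lies at 2.41% to 2.78% and 200 members, while the repair libraries lie at 0.145% to 0.558% and 95 to 172 members, highest in immediate day 21 replicate 5.

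The gain in level by day 21 was small by construction, since the rule set aside gains of 1 or more. Within that bound day 21 stood above day 7 by a median of 0.27 in level after immediate repair (163 members higher, 30 lower) and of 0.03 after delayed repair (109 higher, 83 lower). Over all 16015 genes tested the medians were 0.21 and 0.08. In both repairs 18 members gained over 0.5. The day 21 libraries lay wholly above those of day 7 in 23 members after immediate repair, beside 21.8% of all genes tested, and in 14 members after delayed repair, beside 17.4%. They lay wholly below in 2 members, beside 7.58%, and in 3, beside 6.08%. The day 21 libraries lay wholly above in both repairs for 5 members, a count whose share over all genes tested is not given here. Because the rule used this contrast, nothing is read from these counts.

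Rank 132 was among the 5. It measured 31.9, 29.9, 40.4, 28.5 and 34.0 CPM in control. Immediate repair went from 2.74, 1.77, 1.29 and 1.42 CPM at day 7 to 3.72, 3.96, 3.76, 3.65 and 3.50 CPM at day 21. Delayed repair went from 0.657, 1.24, 1.66, 2.31 and 1.73 CPM to 3.73, 2.40 and 3.34 CPM. The days did not overlap within either repair, and the level at day 21 was still far under control.

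Movement the other way was also present. Rank 112 measured 788 to 1463 CPM in control. At day 7 it measured 70.7, 175, 246 and 146 CPM after immediate repair, against 85.6, 100.4, 78.8, 56.3 and 48.4 CPM at day 21. It had the lowest change of any member in that repair, -1.02 in level, and immediate day 7 replicate 1 overlapped the day 21 libraries.

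The late traces were uneven between libraries of a group. Of the 197 members with any count after repair, 41 had their highest repair value in delayed day 7 replicate 5, 37 in immediate day 21 replicate 5 and 24 in immediate day 21 replicate 3. Delayed day 21 replicate 2 held 11, and no other library held more than 9. The median difference in level from control was -3.03, -3.10, -2.97, -3.35 and -2.80 in the 5 immediate day 21 libraries, and -3.25, -3.06 and -3.28 in the 3 delayed day 21 libraries. Immediate day 21 replicate 4 thus lay with the immediate day 14 libraries, at -3.36 to -3.19, and replicate 5 lay nearest to control.

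Rank 12 shows this unevenness. It measured 71.0, 57.2, 50.4, 60.1 and 32.8 CPM in control. Among the repair libraries it had counts in only 3: 2.32 CPM in immediate day 21 replicate 3, 1.82 CPM in immediate day 21 replicate 5 and 0.115 CPM in delayed day 7 replicate 5. Rank 2 had its 2 highest repair values in the same immediate libraries, 1.84 CPM in replicate 3 and 5.84 CPM in replicate 5, against 110.5 to 189.2 CPM in control.

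**Figure D4:**
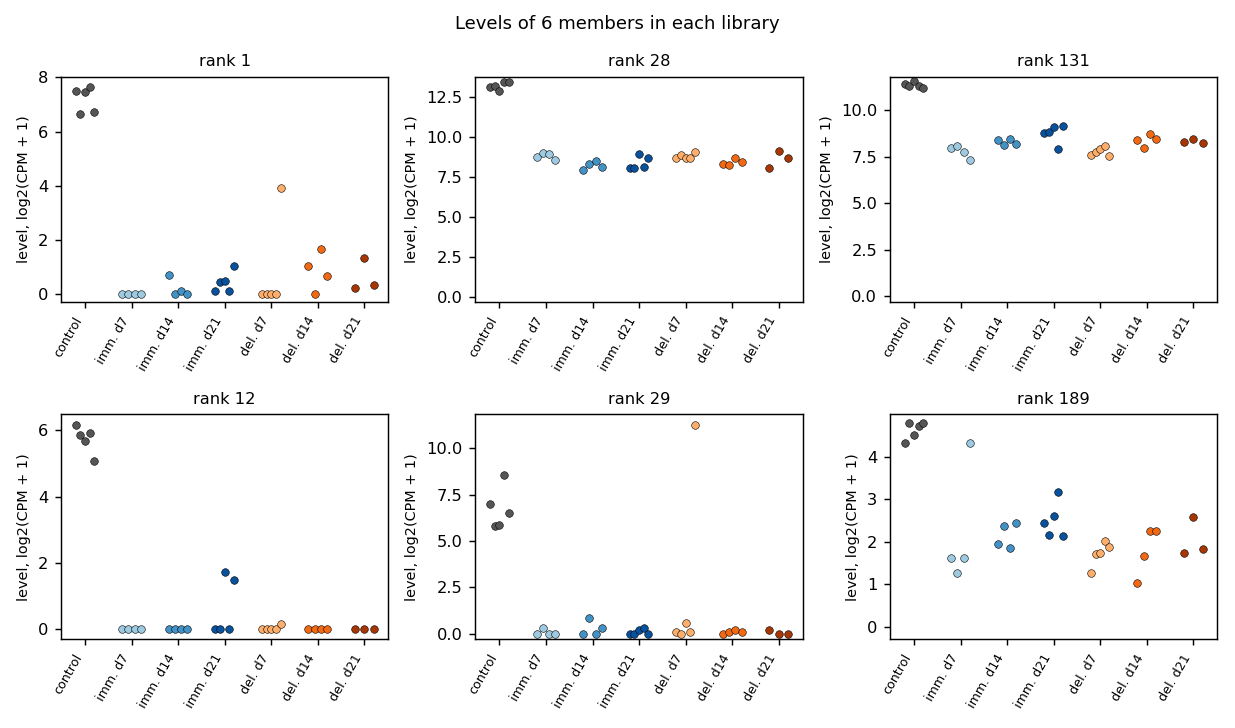
Level, log2(CPM + 1), of 6 members in each library by group, 1 point per library. Rank 1 (ENSRNOG00000028108) and rank 12 are at or near 0 in most repair libraries, rank 28 (ENSRNOG00000018991) and rank 131 keep a measurable level, rank 29 is far above control in delayed day 7 replicate 5, and rank 189 reaches control in immediate day 7 replicate 4.

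In 188 of the 200 members every repair library lay below every control library, where the same held for 12.2% of all genes tested. The rule used this contrast, so the share is a description. Of the 12 members with overlap, 10 had it through delayed day 7 replicate 5 and 2 through immediate day 7 replicate 4. Without delayed day 7 replicate 5 the count was 198.

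The 2 that overlapped in immediate day 7 replicate 4 were ranks 185 and 189. Rank 189 measured 19.1, 27.0, 22.0, 25.6 and 26.7 CPM in control and 2.06, 1.40, 2.06 and 19.1 CPM at immediate day 7, and its other repair libraries lay between 1.03 and 7.94 CPM. Rank 185 measured 7.07 to 10.2 CPM in control and 0.374, 0.0739, 0.580 and 10.1 CPM at immediate day 7. In both genes a single library of the group was at the level of control.

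The rule did not rank the repairs against each other, but it held the levels of both under control, so the comparison of the repairs below is not independent of how the members were chosen. All 200 members passed the filter on low counts. With the filter set on all repair groups without control, 118 members had enough counts to be tested. The other members had enough only with the control libraries included. At day 7, 13 members had no count in either repair, and when the filter was set on the 2 repair groups alone 65 members had enough counts to be tested. The counts out of 200 below thus include members that could not have been called. At day 7, 3 members were higher after delayed repair (quasi-likelihood test of edgeR, p adjusted by Benjamini-Hochberg over 16015 genes, threshold 0.05) and none was lower, beside 0.712% of all genes tested being called and 0.693% being called higher. The 3 were ranks 13, 29 and 149. The edgeR log2 fold change over the 187 members with counts had a median of 0.49, with 126 positive, and over all genes tested 0.04. Before adjustment, 42 members (21.0%) and 8.44% of all genes tested had an edgeR p under 0.05. Without delayed day 7 replicate 5, 12 members had one, and the share of all genes with one in that fit is not given here. In that fit 89 values were positive, with a median of 0.00 over all 200, and the genes called among all tested went from 114 to 1. In a fit of the 2 groups alone, none of the 65 members was called (beside 0% of 13603 genes), and the median log2 fold change was -0.01. The edgeR p before adjustment was under 0.05 in 5 of them (7.69%), beside 1.83% of all genes in that fit. Ranks 13, 29 and 149 had enough counts in too few libraries to enter that fit, so it is no check of those 3 calls. Some fitted values stand on a handful of counts, and the difference between the group mean levels, which such counts move little, had a median of 0.04. No member had its delayed libraries wholly above the immediate ones (0 of 200, beside 0.231% of all genes tested) or wholly below them (0 of 200, beside 0.131%).

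All 3 calls rested on delayed day 7 replicate 5. Rank 13 measured 0.0821, 0.344, 0.319, 0.0642 and 729 CPM in the 5 delayed day 7 libraries and 0.187, 0, 0 and 0 CPM in the 4 immediate ones, against 77.3 to 219 CPM in control. Rank 29 measured 0.0821, 0, 0.511, 0.0642 and 2435 CPM against 0, 0.222, 0 and 0 CPM, and 128, 55.1, 57.3, 373 and 88.2 CPM in control. Rank 149 measured 0, 0.206, 0.0639, 0.257 and 12.7 CPM against 0, 0, 0.0645 and 0 CPM, and 5.70 to 13.02 CPM in control. In each gene replicate 5 was high and the other 8 libraries lay near 0, and in ranks 13 and 29 it exceeded every control library.

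The edgeR log2 fold changes of ranks 13, 29 and 149 were 11.29 (SE 2.46), 13.01 (SE 2.93) and 6.75 (SE 1.62), each with an edgeR adjusted p of 0.0491. Since the immediate libraries held 3, 3 and 1 counts, these fitted values depend on the prior count of the fit. Without delayed replicate 5 they were 1.82, 1.54 and 2.48 with an edgeR adjusted p of 1 for each, and no member was called. Pooled CPM without that replicate was 3.94 times the immediate level for rank 13 (95% exact counting interval 1.06 to 21.7), 3.28 times for rank 29 (0.845 to 18.5) and 7.87 times for rank 149 (1.06 to 349), for counting error only. Leaving out delayed replicates 1, 2, 3 or 4 gave 9, 8, 8 or 7 called members, and leaving out any of the 4 immediate day 7 libraries gave 0. No member was called with relative log expression factors or without the filter, and DESeq2 called 13, of which 12 had their highest repair value in delayed replicate 5. For DESeq2 and for the fits without delayed replicates 1, 2, 3 or 4, the share of all genes called is not given here. The size of those counts is therefore not read as a result about the members.

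Delayed day 7 replicate 5 held 8 members above 5 CPM at over 10 times every other repair library: ranks 7, 13, 18, 29, 66, 74, 149 and 160. Together these 8 took 0.358% of its counts, out of the 0.558% of all members. Rank 7 measured 162 to 226 CPM in control and 197 CPM in this library, against 0.821, 0.893, 0.766 and 0.642 CPM in the other 4 delayed day 7 libraries. Rank 18 measured 143 CPM in it, against 204 to 325 CPM in control and 2.91 to 10.3 CPM in the other repair libraries. The members reached very different heights there, since rank 29 was far above control, rank 7 at its level and rank 18 below it. Most members did not follow: the median difference from control in this library was -2.98, with 45 members at 0 counts. What sets this library apart was not tested.

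**Figure D5:**
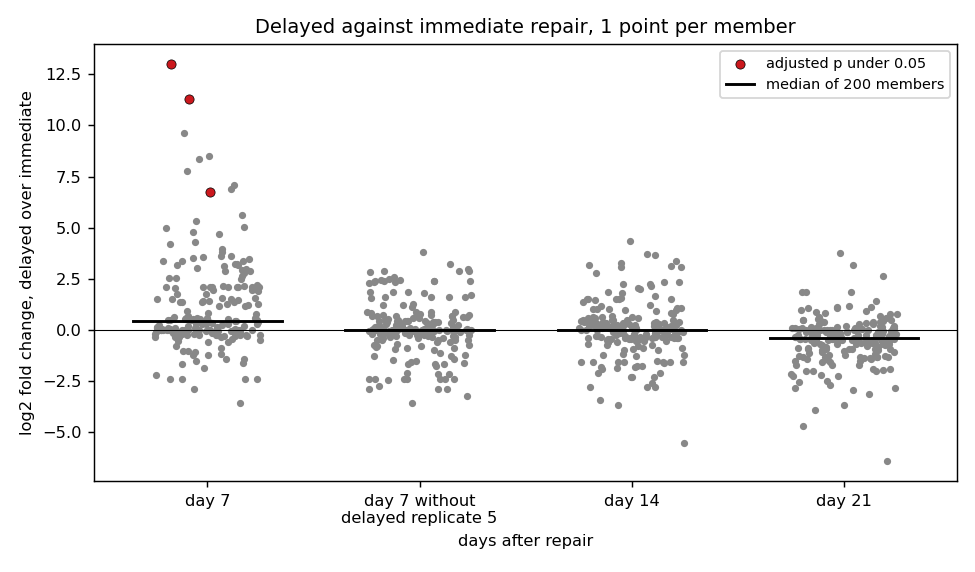
edgeR log2 fold change of delayed over immediate repair for each of the 200 members at day 7, at day 7 without delayed replicate 5, at day 14 and at day 21, with medians over all 200 as bars and members without counts in either group drawn at 0. The 3 called members, in red, appear at day 7 only, and these medians are 0.43, 0.00, 0.00 and -0.40.

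At day 14, with 4 libraries in each group, no member was called (0 of 200, beside 0% of all genes tested), but 10 members had no count in either group and 73 had enough to be tested in a fit of these groups alone. Before adjustment 12 members (6%) and 1.52% of all genes tested had an edgeR p under 0.05, with 6 members higher and 6 lower. DESeq2 called 1 member, and its share over all genes is not given here. Over the 190 members with counts the median edgeR log2 fold change was 0.09, with 99 positive and 91 negative. In the fit of these groups alone none of the 73 was called (beside 0% of 14307 genes). The edgeR p before adjustment was under 0.05 in 2 of them (2.74%), beside 2.59% of those genes. The libraries did not overlap in 1 member that was higher after delayed repair, beside 1.1% of all genes tested, and in 3 that were lower, beside 0.731%.

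At day 21, with 3 delayed and 5 immediate libraries, no member was called either (0 of 200, beside 0.05% of all genes tested), and DESeq2 called 0. Of the 200, 7 had no count in either group and 95 had enough to be tested in a fit of these groups alone. Before adjustment 17 members (8.5%) and 5.69% of all genes tested had an edgeR p under 0.05, with 3 members higher and 14 lower after delayed repair. Over the 193 members with counts the median edgeR log2 fold change was -0.42, with 139 negative and 54 positive, beside a median of -0.02 over all genes tested. In the fit of these groups alone none of the 95 was called (beside 0.00682% of 14669 genes), and the median log2 fold change was -0.24. The edgeR p before adjustment was under 0.05 in 8 of them (8.42%), beside 5.94% of those genes. The difference between group mean levels had a median of -0.12. Over libraries, the median of the members had a pooled SD of 0.165 within these groups. Immediate replicate 4 lay below all 3 delayed libraries in that median. The libraries did not overlap in 5 members that were lower after delayed repair, beside 4.9% of all genes tested, and in 1 that was higher, rank 112, beside 1.35%. Rank 112 measured 112, 144 and 111 CPM after delayed repair against 48.4 to 100.4 CPM after immediate repair, an edgeR log2 fold change of 0.83 (SE 0.31, adjusted p = 0.658). For rank 12, whose only day 21 counts were in the 2 immediate libraries named above, the edgeR adjusted p was 0.662, and no fold is given because all 3 delayed libraries were at 0.

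Intervals of the difference between the repairs were wide for most members. The 95% intervals used here are normal approximations from the SE. The 95% interval of the log2 fold change between the repairs had a median half-width of 2.11, 1.82 and 1.77 over the members with counts in either group at days 7, 14 and 21, against 0.55, 0.58 and 0.60 over all genes tested. Among the 67 members with counts in every repair library it stayed inside 2-fold, up or down, for 26, 24 and 20, and it did so for no other member with counts. The median log2 fold changes of these 67 were -0.07, 0.06 and -0.19. For the most abundant member the log2 fold change was -0.03 (SE 0.19), 0.20 (SE 0.20) and 0.41 (SE 0.21) at days 7, 14 and 21, with edgeR adjusted p of 1, 1 and 0.901. By these approximate intervals a difference between the repairs was bounded within 2-fold for those 26, 24 and 20 members and not for most of the 67. Intervals from the quasi-likelihood test itself would be wider, so these counts may be too high. At day 7 the log2 fold changes of the 67 ran from -2.18 to 5.64, the latter at rank 7, which was high in delayed replicate 5. For the members outside the 67 no difference was bounded within 2-fold. The parts of depth and of the spread between libraries in this were not tested. Members with no count in either group give no estimate.

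An interaction of repair and day was fitted too, and it called no member (edgeR F test, 0 of 200, beside 0% of all genes tested). In a fit of the 6 repair groups alone 118 members had enough counts to be tested, and none was called (beside 0% of 15585 genes). Of these, 9 (7.63%) had an unadjusted edgeR p under 0.05, beside 4.67% of those genes. In the fit with control the unadjusted p was under 0.05 in 24 members and in 5.94% of all genes tested, and DESeq2 called 0. The lowest edgeR adjusted p of a member was 0.344.

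The control nerves varied more in these genes than in most. The rule used the control mean and not its spread, but the same 5 libraries gave both, so the spread is not independent of the choice of members. The SD of the level over the 5 control libraries had a median of 0.34 over the members and 0.19 over all genes tested, and it falls with level. At control levels of 2 to 4 it was 0.38 over 93 members against 0.25 over 3548 genes. At levels of 4 to 6 it was 0.27 over 68 members against 0.16 over 5155, and from 6 upward 0.24 over 39 members against 0.14 over 3149. These are descriptions of the same 5 libraries.

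The range among members was wide. In 120 members the control libraries lay within 2-fold of each other, and in 16 they were over 5-fold apart. Rank 177 was the steadiest, at 96.4, 98.7, 96.3, 99.1 and 86.1 CPM. Rank 179 was the least steady, at 0.475, 7.67, 0.588, 22.2 and 4.37 CPM, with a single repair library above 0 (0.125 CPM in immediate day 7 replicate 1). All 5 control libraries of rank 179 lay above its repair libraries, 2 of them by little. The extremes were spread over all 5: the highest control value fell in replicates 1 to 5 for 35, 36, 46, 54 and 29 members and the lowest for 27, 38, 43, 28 and 64.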

How the data were processed

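The authors deposited unnormalized counts of reads for each Ensembl rat gene, 30 libraries in 1 table. By the labels' protocols, 400 ng of RNA (integrity number above 6) went into poly(T) capture without strand marking, so overlapping or antisense genes cannot be told apart. DESeq2 1.38.3, featureCounts 1.5.0-p3 and HISAT2 2.0.5 are named, without a role, in the submitters' processing notes. Build, annotation and the handling of reads shared by near-identical genes are not stated there, so members with such copies are uncertain.

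Levels and CPM used unscaled column sums with a pseudocount of 1. Tests used edgeR 4.0.16 in R 4.3.3: filterByExpr by group (16015 genes kept), TMM factors, 1 fit of 7 groups with a shared estimate of spread, the robust quasi-likelihood test and Benjamini-Hochberg adjustment at 0.05, tested on simulated data. Standard errors are the log2 fold change over the root of the F statistic. Alternatives were DESeq2 1.42.0, other factors, no filter, a fit of only the groups compared, a replicate block, other pseudocounts and scaling, and leaving out each library. Over 51 pairs of replicates chi-square per degree of freedom was at least 14.9, so no pair agreed within sampling noise.

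The members, lists and tests were chosen with earlier results of these data known. The rule for named genes took the lowest ranking values, the highest control levels, called and extreme members between repairs, the edge of the set, and the steadiest and least steady in control. Gene lists by symbol, marker checks, comparisons of listed genes with control, promoter sequences and motifs were not used, since 0 rows of the symbol table carry an Ensembl ID. Only 2 members are printed by ID. The choice of those 2, of members given by rank beyond the rule, of the classes by detection, of counts over members seen in the groups compared, and of values without delayed day 7 replicate 5 was made after the values were seen.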

Additional observations from a re-analysis of the deposited data

Results flagged for a closer look

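Results are listed where 1 library lay far from the others of its group by Dixon's criterion at 95%. In all, 40 groups of values were examined. A rate of 1 in 20 listed by chance does not hold for them. Where all other libraries of a group are at 0, any count is listed. Ranks 13, 29 and 149 were examined because they were called through delayed day 7 replicate 5, so their listing there is no separate result. Delayed day 7 replicate 5 stood apart in the share of counts taken by the members (0.558%) and in the CPM of ranks 1 (13.9), 13 (729), 29 (2435) and 149 (12.7), with the other 4 libraries of the group at 0.511 CPM or less. In control nerve, replicate 4 stood apart for rank 29 at 373 CPM, against 55.1 to 128 CPM in the other 4. The remaining values are a few counts in a library whose fellows had fewer or none: rank 1 at 0.622 CPM in immediate day 14 replicate 1, rank 13 at 0.187 CPM in immediate day 7 replicate 1, rank 29 at 0.222 CPM in immediate day 7 replicate 2, and rank 149 at 0.0645 CPM in immediate day 7 replicate 3.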

How the results depend on the processing

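The membership depended on how low levels are weighted: 105 of the 200 stayed with a pseudocount of 0.1, 105 with a pseudocount of 5 and 79 without the condition on day 21. With TMM-scaled sizes 187 stayed and with group medians 177. Leaving out 1 library kept 178 to 200. TMM scaling moved levels against control by -0.19 to 0.00. Called members at day 7 (3) went to 0 without the filter, with relative log expression factors and with the replicate block, and to 13 with DESeq2. With the compared groups alone none was called, but only 65 members had enough counts to be tested. Ranks 13, 29 and 149 were not among the 65, so that fit did not test the 3 calls again. Leaving out 1 library of the comparison gave 0 to 9. DESeq2 called 1 member at day 14. The counts from DESeq2 and the raised counts after leaving out a library stand without the share over all genes, so their size is not interpreted. The other settings run for days 14 and 21 and the interaction gave 0 called members, but of those members only 73, 95 and 118 had enough counts in the repair groups to be tested there. The median difference in level between the repairs over members, 0.04 at day 7 and -0.12 at day 21, was 0.21 and -0.29 with a pseudocount of 0.1. The causes were not tested. Whether replicate numbers pair the samples is not settled by these members, most of them near 0 after repair. Same-numbered libraries of the repairs deviated with correlations of -0.69 to -0.12 at day 7, 0.04 to 0.46 at day 14 and -0.09 to 0.01 at day 21. The correlation was over 0.1 in 3 of 11 pairs, all at day 14. Of 11 delayed libraries, 3 correlated best with the immediate library of their own number. Depth limits the members most after repair, where a median member measured 0.0934 to 0.641 CPM by group.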
